A study of Rattus norvegicus with 16 samples.

Results

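The cytosolic ribosomal protein genes encode the protein parts of the large and small subunits of the ribosome that translates messenger RNA outside the mitochondria. They were chosen by name: every gene with an Rpl or Rps symbol followed by a number, together with the stalk genes Rplp0, Rplp1 and Rplp2 and the laminin receptor gene Rpsa, without the Rps6k kinases. This gave 82 of 35071 gene names and 126 of 41012 probes, 51 genes for the large subunit and 31 for the small. No measured value entered the choice, but Rps26 was set against the rest with its earlier result known.

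Livers came from male Lewis rats housed free of specific pathogens, and each sample was hybridised to its own one-colour array. Rats of 3, 9, 12 and 18 months gave 3 samples per age and rats of 24 months gave 4, which makes 16 arrays over 5 ages. No treatment or genetic change is named for any age. Nothing states that the samples came from separate animals, so a p-value measures only the spread between these samples. In whole liver, fewer cells of a type and less RNA per cell cannot be told apart.

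Nearly all of these proteins occur once in each ribosome, and their messenger RNAs are among the most abundant of the hepatocyte, which makes most plasma proteins. Their transcripts usually begin with a run of pyrimidines, the terminal oligopyrimidine tract, through which growth signalling by the kinase complex mTORC1 controls their translation. Some members have paralogs used mainly in other tissues, such as Rpl3l in striated muscle and Rpl10l and Rpl39l in testis.

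Rps26 encodes a small subunit protein near the channel through which messenger RNA leaves the ribosome. It had 1 probe of 60 bases on the array, at chr7:1919153-1919212 on the minus strand (rat build rn4). The second part of that probe, bases 31 to 60, is shown because every Rps26 value rests on it, with the polyadenylation signal letters AATAAA in capitals. Below it stand the probes of 3 of 6 other entries that the array's annotation describes as similar to ribosomal protein S26, chosen after their values were seen.
Rps26, bases 31 to 60: catggaaaAATAAAactgaagttatacttt
RGD1562415, chr11:72257311-72257370: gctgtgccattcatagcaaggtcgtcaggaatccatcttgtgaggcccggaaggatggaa
RGD1559808, chr9:2011640-2011699: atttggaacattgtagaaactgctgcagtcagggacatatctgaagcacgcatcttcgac
ENSRNOT00000032188, chr8:48965280-48965339: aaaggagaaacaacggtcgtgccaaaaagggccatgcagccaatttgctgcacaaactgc

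The letters AATAAA began at base 39 of the Rps26 probe, read on the gene's strand only. They occurred in 15 of the 126 member probes and in 4.26% of all probes. With a GC content of 26.7%, the Rps26 probe had the lowest of the 126 member probes, whose median was 45%. It shared no run of more than 15 bases, on either strand, with any other probe of the array.

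The promoters of 6 members named below, 60 bases before to 30 after the start of transcription (RefSeq, build GRCr8), show the pyrimidine run that most members share. Capitals mark the longest run of C and T that reaches within 20 bases of the start.
Rps26: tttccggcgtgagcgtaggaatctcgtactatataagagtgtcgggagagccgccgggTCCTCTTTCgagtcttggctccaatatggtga
Rpl34: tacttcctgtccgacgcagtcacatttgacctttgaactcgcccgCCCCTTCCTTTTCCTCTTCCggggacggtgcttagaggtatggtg
Rpl10a: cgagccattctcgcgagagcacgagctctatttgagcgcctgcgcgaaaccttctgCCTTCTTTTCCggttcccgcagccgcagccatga
Rps10: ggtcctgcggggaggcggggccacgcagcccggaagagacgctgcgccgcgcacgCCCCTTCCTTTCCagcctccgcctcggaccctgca
Rpl29: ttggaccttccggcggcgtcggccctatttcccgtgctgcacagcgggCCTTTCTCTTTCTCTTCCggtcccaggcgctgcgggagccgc
Rpl3l: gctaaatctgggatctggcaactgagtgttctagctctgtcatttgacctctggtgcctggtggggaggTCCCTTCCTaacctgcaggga

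Promoters, 1 per gene, were matched for 65 of the 82 members. A run of 7 or more pyrimidines lay there in 56 of the 65, or 86.2%, against 30.1% of the promoters of all 27457 genes. The letters CTCTTT, which can lie within such a run, were found within 20 bases of the start in 26.2% of the members' promoters and in 1.63% of all. For CTTTCC the shares were 26.2% of the members' promoters and 1.79% of all. These motifs were read on the gene's strand only. In Rpl3l, the muscle paralog, the longest run of 9 began 10 bases after the start, whereas the run of Rps26, also of 9, spanned the start.

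The arrays differed in quality. Between 52.5% (24-month sample 4) and 65.2% (3-month sample 3) of probes lay well above background, saturation affected 0 spots, and precision rests on how many arrays each age has. The 12-month sample 2 had the lowest mean correlation with its own age, 0.965. All 10 hepatocyte markers of a fixed list lay above background on every array. Slide 1 carried every 3-month sample, slide 4 every 18-month sample and slides 5, 6 and 7 the 24-month samples, so slide and age cannot be told apart for the comparisons of 24 months. Scanning fell in 2 sessions, 1 of which held all of 18 months and samples 3 and 4 of 12 months and nothing else. Scanning took 3 days, and 1 day of the other session held all 24-month samples and nothing else. The 3-month samples, in that same session, were scanned on another day. Scan day and age therefore cannot be told apart for the comparisons of 24 months either.

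All 82 members passed the filter on dim probes, and 81 lay above background on all 16 arrays, the exception being Rpl39l. The unit is the log2 signal minus the log2 of its array's 75th percentile, compared between arrays for 1 probe at a time. The 5 members with the highest probe signal were Rplp1, Rpl37, Rps6, Rps23 and Rpl8, and the 5 with the lowest were Rpl39l, Rpl3l, Rpl7l1, Rps26 and Rpl10l. RefSeq gives the transcripts of the Rpl39l and Rpl37 probes used here other symbols, Rpl39l1 and Rpl37l1.

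At 24 against 3 months, 4 of the 82 members changed. Rps26, Rpl34 and Rpl3l fell and Rpl10a rose (limma, adjusted p below 0.05). That is 4.88% of the members, below the 13.3% called over all 21452 genes tested. Of all genes 4.24% were called higher and 9.09% lower. Among the 16543 genes above background on all arrays, 818 were called higher and 1008 lower. The median log2 fold change of the members was 0.03, against -0.04 over all genes, with 43 members above 0 and 39 below.

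Rps26 had log2 signals of -1.15, -1.16, -3.47 and -2.41 in the 24-month samples, against 1.22, 1.21 and 1.19 in the 3-month samples. All 24-month samples lay below all others, and they were far more spread out than those of 3 months. The log2 fold change was -3.26 ± 0.42 (SE, limma, adjusted p = 0.000258), a 9.57-fold fall. With normexp background correction, an alternative, it was -1.91 (limma, adjusted p = 0.000166). The samples of 9 months (1.36, 1.39 and 1.40) and of 12 months (1.47, 1.02 and 1.28) lay close to those of 3 months. Those of 18 months (2.0, 2.35 and 2.34) lay above all others, yet the step of 18 against 12 months, 0.97 on the log2 scale, did not pass (limma, adjusted p = 0.269).

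The median of the other members did not follow Rps26, while Rpl34 did in part. The log2 signal of Rps26 minus the median of the 80 other members measured on every array averaged -5.84 ± 0.04 at 3 months (SD, n = 3), -5.71 ± 0.05 at 9 months (n = 3), -5.76 ± 0.10 at 12 months (n = 3), -4.52 ± 0.21 at 18 months (n = 3) and -9.07 ± 1.19 at 24 months (n = 4). Only the shift of this difference between ages can be read, since different probes have different brightness. It is a description, as Rps26 was chosen for its fall.

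Of 6 other entries described as S26-like, the 3 above background on all 16 arrays gave smaller changes. The other 3 were above background on 1, 1 and 7 arrays, and no change is given for them. RGD1562415 averaged 6.76 ± 0.17 at 24 months (SD, n = 4) and 6.77 ± 0.05 at 3 months (SD, n = 3), a log2 fold change of -0.01 (limma over all probes, adjusted p = 0.974). RGD1559808 averaged 5.67 ± 0.13 at 24 months and 5.72 ± 0.04 at 3 months (adjusted p = 0.829). ENSRNOT00000032188 fell by 0.46 on the log2 scale (adjusted p = 0.0143). Whether these probes read Rps26 messenger RNA was not tested.

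**Figure D1:**
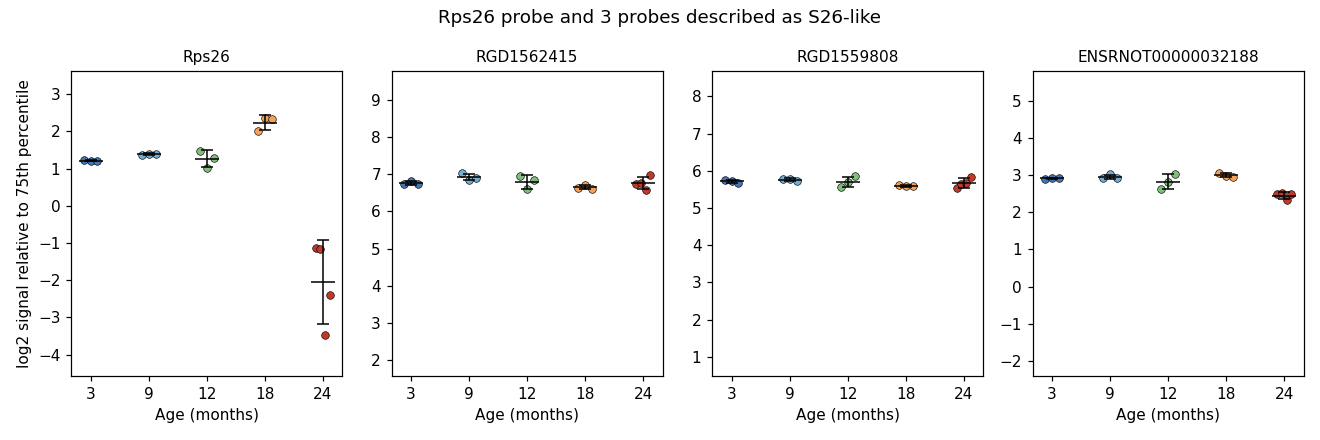
Log2 signal relative to the 75th percentile of each array (y axis) by age in months (x axis) for the Rps26 probe and 3 S26-like entries. Points are samples, bars are mean ± SD, and every panel spans the same number of log2 units. The 24-month Rps26 samples lie between -3.47 and -1.15, below all others.

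Rpl34 is a large subunit protein. It had 4.92, 4.96, 5.0 and 4.84 in the 24-month samples, against 5.44, 5.43 and 5.38 in the 3-month samples. The groups did not overlap, and the log2 fold change was -0.49 ± 0.12 (SE, limma, adjusted p = 0.0173). The call was lost when 1 of the 3-month samples 1, 2 or 3 was left out, with adjusted p up to 0.0703.

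Rpl10a encodes the protein of the mobile stalk by which the spent transfer RNA leaves. It had 5.89, 5.98, 5.92 and 6.09 in the 24-month samples, against 5.52, 5.61 and 5.52 in the 3-month samples. It was higher in all 24-month samples, by 0.42 ± 0.12 on the log2 scale (SE, limma, adjusted p = 0.0382). In 9 of 16 fits with 1 sample left out, the adjusted p passed 0.05, up to 0.131.

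Rpl3l had -2.60, -2.73, -2.20 and -2.13 at 24 months, against -2.05, -1.55 and -1.94 at 3 months. The groups lay close but did not overlap. The log2 fold change was -0.57 ± 0.17 (SE, limma, adjusted p = 0.0458), and the call was lost in 12 of 16 fits with 1 sample left out, with adjusted p up to 0.223. Rplp0, which encodes the base of the acidic stalk, changed by 0.50 and did not pass (limma, adjusted p = 0.119). For Rpl39l, above background in 2 of the 4 samples of 24 months, no change is given here.

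Sums of markers of some other cell types differed in this comparison as well. The summed signal of 8 T and NK cell markers, of which Cd3e, Cd2 and Lck were not above background on every array, was 3.11 to 4.61 at 24 months, against 2.75 to 2.83 at 3 months, on the log2 scale. For 7 macrophage markers on the array it was 7.19 to 7.59 at 24 months, against 7.06 to 7.15 at 3 months, with Timd4 not above background on every array. For 7 stellate cell and fibroblast markers, all above background, it was 4.52 to 4.84 at 24 months, against 5.30 to 5.51 at 3 months. The cholangiocyte sum was 1.45 to 1.81 at 24 months, against 0.803 to 1.10 at 3 months. The pancreas sum was 1.87 to 4.35 at 24 months, against 4.52 to 4.73 at 3 months. Several markers of these last sums were not above background on every array. The hepatocyte and endothelial sums overlapped between these ages. Their part in the changes was not tested.

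The step of 24 against 18 months gave more calls than any other. Here 23 of 82 members were called, 28.0%, close to the 25.8% called over all genes (limma). By direction, 19 were higher at 24 months, where 10.8% of all genes were, and 4 were lower, where 15% of all genes were. Among the 16543 genes above background on all arrays, 1910 were called higher and 1749 lower. The median log2 fold change of the members was 0.24, against 0.05 over all genes, and 70 of the 82 lay above 0, as did 11625 of all 21452 genes. The split of 19 higher and 4 lower became 0 and 3 with normexp, 1 and 2 with slide as a random block, and 13 and 7 without 24-month sample 4. Both this comparison and that of 24 against 3 months use the same 24-month samples.

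The 19 higher members came from both subunits. Rpl10a rose most, by 0.82 ± 0.12 on the log2 scale (SE, limma, adjusted p = 0.000297). Its 18-month samples had 5.08, 5.11 and 5.27. Rps10, a small subunit protein marked by ubiquitin in human cells when ribosomes collide, had 5.87, 5.81, 6.08 and 6.09 at 24 months, against 5.42, 5.33 and 5.45 at 18 months. Its log2 fold change was 0.56 ± 0.10 (SE, limma, adjusted p = 0.00126).

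Rpl29, a small basic protein of the large subunit, had 7.09, 7.10, 7.29 and 7.36 at 24 months, against 6.61, 6.62 and 6.69 at 18 months. It rose by 0.57 ± 0.11 (SE, limma, adjusted p = 0.00131). Rps4x, encoded on the X chromosome, had 5.77, 5.75, 5.95 and 5.74 at 24 months, against 5.25, 5.22 and 5.31 at 18 months, a rise of 0.54 ± 0.11 (SE, limma, adjusted p = 0.00214). The 24-month and 18-month samples of Rpl10a, Rps10, Rpl29 and Rps4x did not overlap.

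Rplp0 and Rpl12, which sits beside it at the stalk base, rose by 0.63 ± 0.20 and 0.60 ± 0.17 on the log2 scale (SE, limma, adjusted p = 0.0291 and 0.0194). Among the other higher members, Rps3, at the messenger RNA entry site, rose by 0.49 ± 0.11 (SE, limma, adjusted p = 0.00548).

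The 4 lower members were Rps26, Rpl34, Rpl10l and Rpl17. Rps26 changed by -4.28 ± 0.42 on the log2 scale (SE, limma, adjusted p = 1.04e-05). Rpl34, with 6.09, 6.13 and 5.91 in the 18-month samples, changed by -1.11 ± 0.12 (SE, limma, adjusted p = 2.39e-05). Rpl10l had 1.36, 1.59, 1.41 and 1.70 at 24 months, against 2.74, 2.82 and 2.57 at 18 months, a change of -1.20 ± 0.27 (SE, limma, adjusted p = 0.00462).

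Rpl17, which lines the exit tunnel for the new protein, and Rps7, a small subunit protein, gave opposite results with different probes. The brighter Rpl17 probe averaged 6.92 ± 0.28 at 24 months (SD, n = 4) and 7.34 ± 0.04 at 18 months (SD, n = 3), a change of -0.42 (limma, adjusted p = 0.0446). Its other probe averaged 6.78 ± 0.07 at 24 months and 6.39 ± 0.12 at 18 months, a change of 0.39 (limma over all probes, adjusted p = 0.0110). The brighter Rps7 probe rose by 0.40 (limma, adjusted p = 0.0271), and its other probe changed by -0.44 (limma over all probes, adjusted p = 0.0150). Neither gene therefore has 1 direction here.

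In each of the 16 fits with 1 sample left out, 11 of the 23 calls held. Only Rps26 and Rpl34 also held under every other setting tried. With scan session as a term, estimated from the 12-month samples alone, 7 members were called. With slide as a random block, 3 were called. The ages share neither a slide nor a session. The macrophage sum was 7.19 to 7.59 at 24 months, against 6.57 to 6.90 at 18 months, and the T and NK cell sum was 3.11 to 4.61 at 24 months, against 1.71 to 1.96 at 18 months. The stellate cell and fibroblast sum was 4.52 to 4.84 at 24 months, against 3.94 to 4.19 at 18 months. For 5 cholangiocyte markers, with Krt7, Sox9 and Cftr not above background on every array, it was 1.45 to 1.81 at 24 months, against 0.716 to 0.879 at 18 months. Their part in the changes was not tested.

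**Figure D2:**
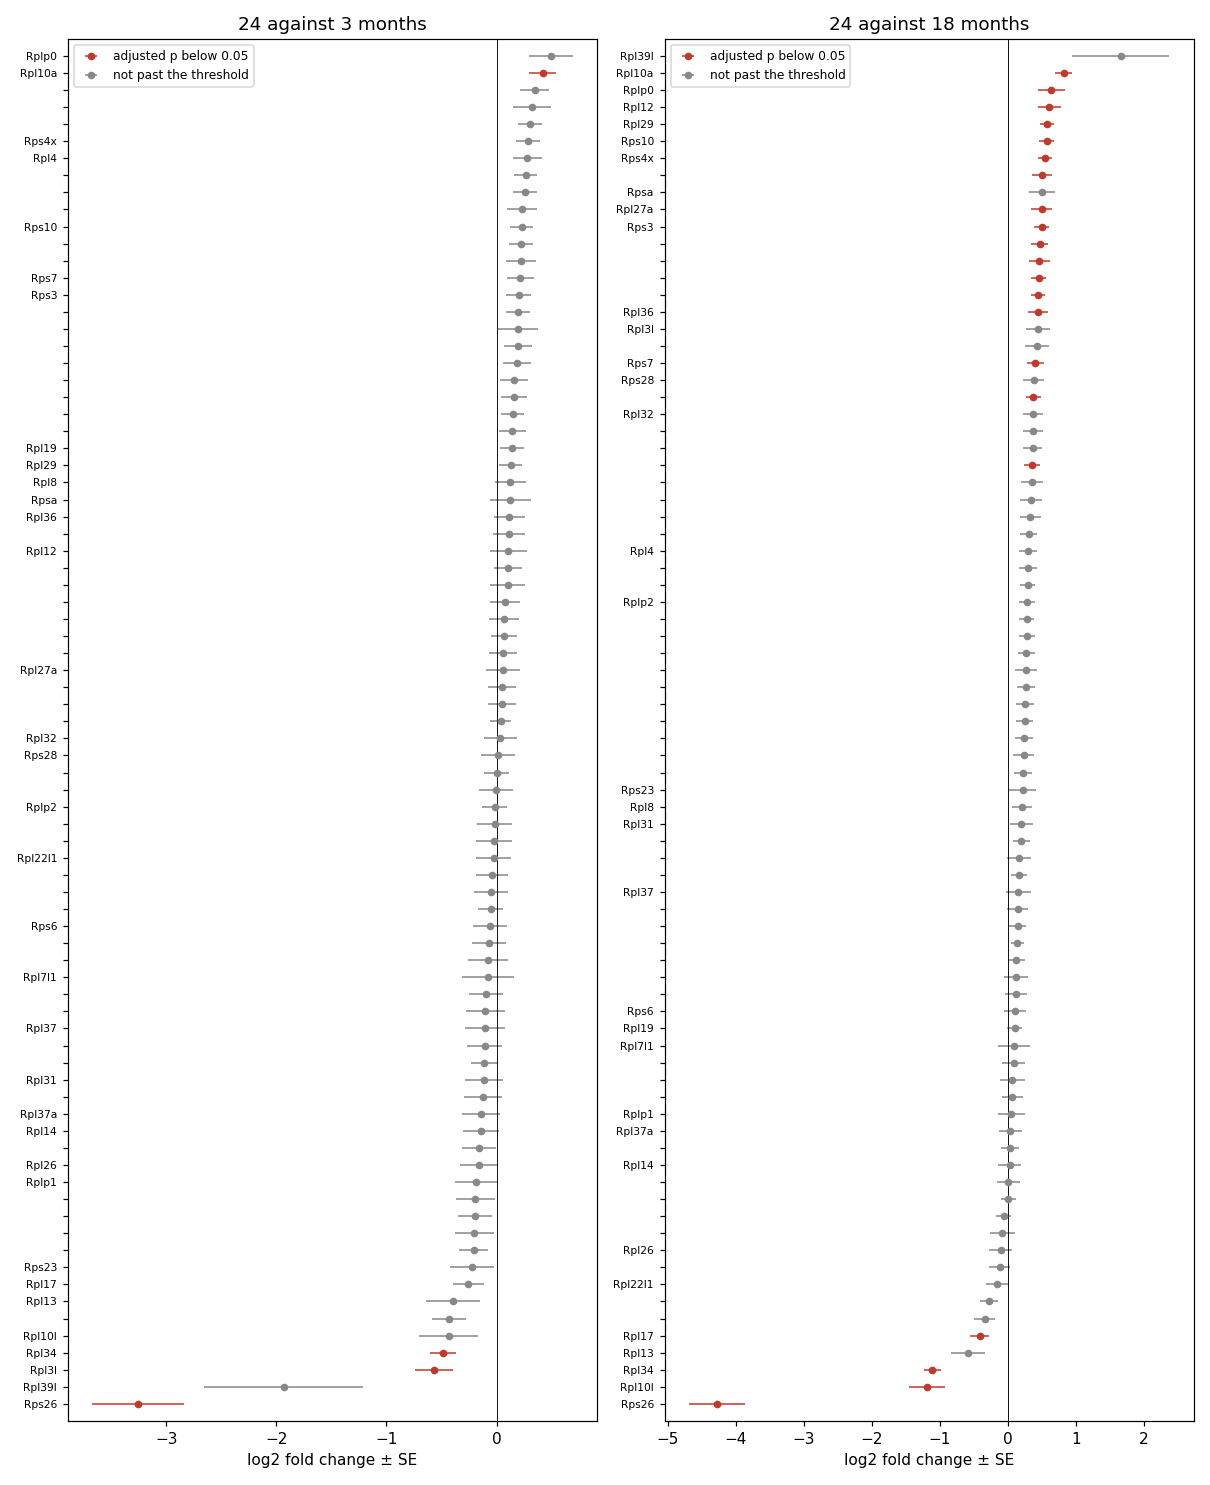
Log2 fold change ± SE (x axis) of 80 of the 82 members (y axis, sorted within each panel, with names for those named in the text) at 24 against 3 months and at 24 against 18 months, with red points past an adjusted p of 0.05. The left panel has 4 red points and the right panel 21, with Rps26 lowest in both.

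**Figure D3:**
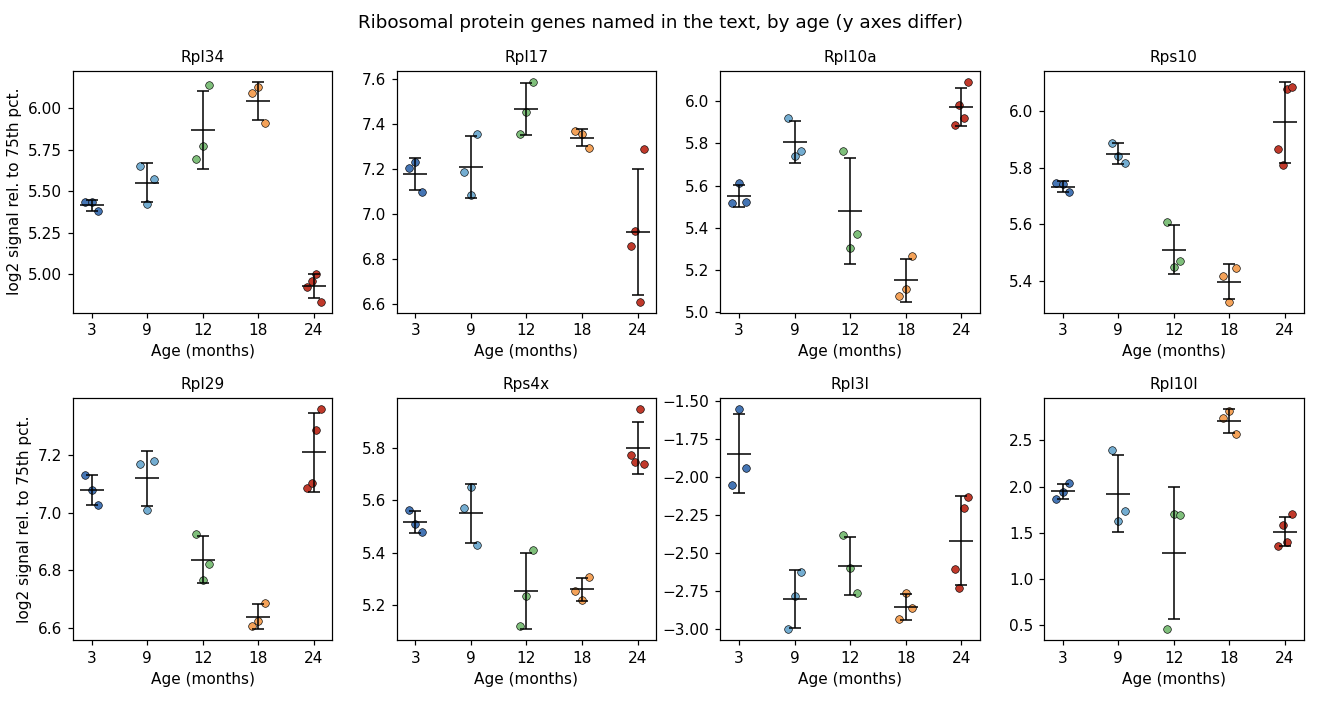
Log2 signal relative to the 75th percentile (y axes, which differ) by age in months (x axis) for 8 members. Points are samples and bars are mean ± SD, and the 24-month Rpl34 samples, 4.84 to 5.0, lie below all others.

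Rps26 and Rpl34 had the probes with the least G and C among the 82 genes' probes, 26.7% and 31.7%. Of 5 members at 35%, Rpl17 was called lower at 24 against 18 months, and the log2 fold changes of the others lay between -0.35 and 0.19, with 2 of them above 0. Over other genes above background on all arrays, the 332 with under 30% GC had a median log2 fold change of -0.32 at 24 against 18 months. The 7436 with 40% to 50% GC had 0.11, and the 296 with 60% or more had -0.46. Called lower in this comparison were 36.1% of the 332, 7.49% of the 7436 and 44.6% of the 296 (limma). Of the 332, 1 changed by -3 or less. At 24 against 3 months the corresponding medians were -0.07, 0.02 and -0.07, with 8.13%, 5.37% and 12.5% called lower. There 0 of the 332 changed by -3 or less. The part of probe composition in the members' changes was not tested.

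**Figure D4:**
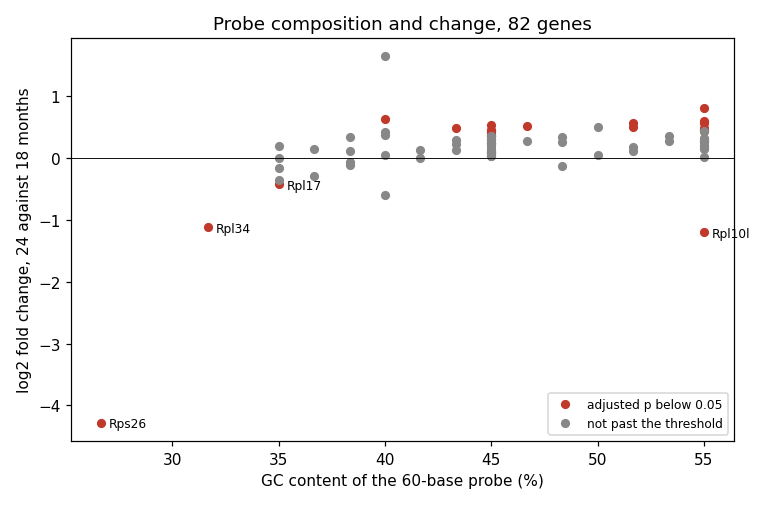
GC content of the probe in percent (x axis) and log2 fold change at 24 against 18 months (y axis) for the 82 members, 1 point each, with red points past an adjusted p of 0.05. Rps26, at 26.7% GC and -4.28, lies far from the rest.

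Over the earlier steps few members changed. At 9 against 3 months 2 of 82 were called, both lower (limma), where 5.14% of all genes were called and 3.2% were lower. Rpl3l had -3.0, -2.78 and -2.62 at 9 months, against -2.05, -1.55 and -1.94 at 3 months, a log2 fold change of -0.95 ± 0.19 (SE, limma, adjusted p = 0.00972). The groups did not overlap, and the call was lost without 3-month sample 2, at an adjusted p of 0.0551. Slide 1 held all samples of 3 months and 1 of 9 months. With slide as a fixed block the change was -0.93 (limma, adjusted p = 0.0600), within slide 1 it was -0.93 (limma, adjusted p = 0.0674), and with normexp it was -0.41, also not past the threshold.

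Rpl39l lay above background in all 3-month samples and in none of 9, 12 or 18 months. It passed the filter only through the 3-month samples, where it was high, so its call is a description and supports nothing. Its mean log2 signal was -6.15 at 9 months, not well above background, and -2.41 at 3 months (limma, adjusted p = 0.0119). Measured against the lowest signal well above background on each 9-month array, it was at least 5.04-fold lower at 9 months. The bound was at least 4.25-fold at 12 months and at least 4.29-fold at 18 months, each against 3 months. At 24 months, samples 1 and 2 lay above background and samples 3 and 4 did not. The call at 9 against 3 months was lost without 3-month sample 1 or 2, with adjusted p up to 0.0623.

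Some sums of cell type markers were lower at 9 than at 3 months as well, and others were not. The neutrophil sum of 6 markers, with Camp, Mpo and Ngp not above background on every array, was 0.251 to 0.672 at 9 months, against 3.98 to 4.21 at 3 months. The T and NK cell sum was 1.06 to 1.38 at 9 months, against 2.75 to 2.83 at 3 months. The stellate cell and fibroblast sum was 4.68 to 4.90 at 9 months, against 5.30 to 5.51 at 3 months. The hepatocyte sum was higher, 12.60 to 12.72 at 9 months, against 12.39 to 12.57 at 3 months. The cholangiocyte sum was 1.09 to 1.71 at 9 months, against 0.803 to 1.10 at 3 months. The macrophage and endothelial sums overlapped between these ages. Their part in the changes of Rpl3l and Rpl39l was not tested.

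At 12 against 9 months 1 of 82 members was called, where 6.27% of all genes were and 3.1% were lower. Rpl4, which lines the exit tunnel, had 4.66, 4.93 and 4.97 at 12 months, against 5.34, 5.62 and 5.09 at 9 months. The log2 fold change was -0.50 ± 0.14 (SE, limma, adjusted p = 0.0490), and the call was lost in 13 of 16 fits with 1 sample left out, with adjusted p up to 0.180. At 18 against 12 months 1 of 82 was called, where 1.39% of all genes were and 1.07% were higher. Rpl10l had 2.74, 2.82 and 2.57 at 18 months, against 0.46, 1.70 and 1.70 at 12 months, and rose by 1.42 ± 0.28 (SE, limma, adjusted p = 0.0267). That call was lost without 18-month sample 1, 3 or 4, with adjusted p up to 0.110.

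Although 1 member passed at 18 against 12 months, 68 of the 82 had a log2 fold change below 0, with a median of -0.20, against -0.06 over all genes. Over all genes 12187 of 21452 were below 0. In the brighter part of the members all 40 were below 0, with a median of -0.30, against -0.17 over 287 other genes of that brightness. In the dimmer part 28 of 40 were below 0, with a median of -0.10, against -0.05 over 14661 other genes. Members share arrays and tend to move together, so these counts are not counts of independent results.

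Over all 5 ages, 20 of the 82 members differed in the F test of limma, 24.4%, where 37.5% of all genes did. The smallest p-values were those of Rps26, Rpl34, Rpl10a, Rps10 and Rpl3l, with adjusted p from 5.8e-05 to 0.00498. In the linear trend with age 0 of 82 were called (limma), where 5.8% of all genes were, and 3 had an unadjusted p below 0.05. In no comparison were the other measured paralogs Rpl22l1 and Rpl7l1 called.

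The members differed from array to array within an age. Taking each gene's deviation from its own mean, the median of the 80 others measured on every array was 0.35 in 24-month sample 4, against -0.12, -0.01 and -0.02 in 24-month samples 1, 2 and 3. The 3 samples of 18 months had -0.14, -0.16 and -0.21, and those of 12 months 0.13, -0.11 and 0.07. The median of all genes in 24-month sample 4 was 0.06. Which sample stood out depended on the scaling. With quantile normalization sample 3 had 0.34 and sample 4 had 0.16, with the deposited series values these were 0.34 and 0.17, and with normexp -0.90 and 0.32.

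**Figure D5:**
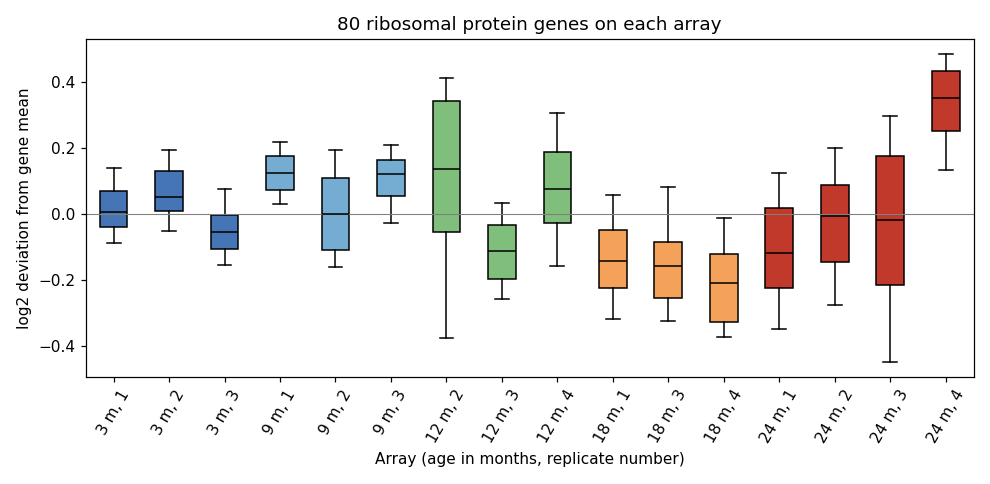
Deviation of 80 members from their own mean over 16 arrays, in log2 units (y axis), for each sample (x axis, age in months and replicate number). Lines are medians, boxes hold the middle 50% and whiskers run between the 10th and 90th percentiles, and the median is highest, 0.35, in 24-month sample 4 under this scaling, while sample 3 was highest with quantile normalization (0.34).

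Among the 80 members the median Pearson correlation over 16 arrays, which share slides and scaling, was 0.48 over 3160 pairs. The profile of Rps26 was most like that of Rpl34 (0.84), Rpl17 (0.70) and Rpl13 (0.69) and least like that of Rps4x (-0.82). Among all genes with a symbol, Usp4 (0.95), Spata2 (0.93), Drd5, Prl3d4 and Snrpe (0.92 each) were most like it. Each likeness is between single probes. The probes of Rps26, Rpl34, Rpl17 and Rpl13 all held AATAAA. So did those of several other members, some of which rose and some fell at 24 against 18 months. Their log2 fold changes ran from -0.28 to 0.38, the highest being that of Rps28. At 24 against 3 months the Rpl17 and Rpl13 probes used here changed by -0.26 and -0.39, and their other probes by 0.13 and 0.21. None of these changes passed (limma over all probes). The part of probe position was not tested.

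For 24 members with several probes, ordered by their rn4 positions, the last probe had the lower log2 fold change at 24 against 3 months in 20. The median difference was -0.09. The last probe was the brighter in 17 of the 24, and the brighter probe had the lower change in 17, so position and brightness cannot be told apart. No share over all genes with several probes was computed, so the count is not a result about the members. The difference was largest for Rpl13, at -0.39 by the last probe and 0.21 by the first, neither past the threshold (limma over all probes, adjusted p = 0.346 and 0.348). Both Rpl13 probes were placed on chr8 in rn4, whereas RefSeq has the gene on chromosome 19. Another of the 24 genes was also placed on a different chromosome from that of RefSeq. Outside the 24, the only probes of Rpl10a, Rpl32 and Rpl37a were placed on chr4, chr6 and chr5. RefSeq has these genes on chromosomes 20, 4 and 9. What such probes read was not tested, and the order is uncertain.

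Genes that work with the ribosome gave these counts at 24 against 3 months, where 13.3% of all genes were called. Of 9 translation elongation factors 0 were called, and of 35 initiation factors 1 was, the poly(A) binding protein gene Pabpc1, which averaged 7.04 ± 0.07 at 24 months (SD, n = 4) and 6.63 ± 0.04 at 3 months (SD, n = 3; limma, adjusted p = 0.0440). It was also the 1 called of 20 other mRNAs known to carry a terminal oligopyrimidine tract, whose median log2 fold change was 0.14. Of 68 mitochondrial ribosomal protein genes Mrpl34 and Mrps36 rose, by 0.54 and 0.56 on the log2 scale (limma, adjusted p = 0.0148 and 0.0302), and their median was 0.00.

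Of 65 ribosome biogenesis genes 5 rose and 1 fell, and the median was 0.19, against -0.04 over all genes. Gtpbp4 and Gnl3, nucleolar GTPases, rose by 0.75 and 0.46 on the log2 scale (limma, adjusted p = 0.0307 and 0.0293), and Noc2l, which takes part in large subunit export, changed by -0.58 (limma, adjusted p = 0.0157). Of 18 genes of mTORC1 and growth control, and of 11 of ribosome stress, 0 were called.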

How the data were processed

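Per the file headers, intensity values of liver RNA came from Agilent Feature Extraction 10.7.3.1, with the processed signal background-subtracted within each array. The background, saturation and outlier flags (other) are also per the file headers. The log2 values of the series table were normalized between arrays by the authors in an unstated way, and served as an alternative. The labelling kit named is one for microRNA, which was not resolved.

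The processed signal was taken to log2 minus the 75th percentile of each array. Outlier spots were set missing and spots of a probe averaged. A probe entered (25698 did) if every array of some age had it well above background, and a gene took its brightest probe (21452 genes). A mean per age over all 16 arrays was fitted with limma 3.58.1 in R 4.3.3, with Benjamini-Hochberg adjustment over all genes at 0.05, two-sided. Pseudocounts were not used in this fit. The normexp alternative added an offset of 50 to the signal before log2. The limma procedure was tested on simulated data. Figures used matplotlib 3.10.9. Some members are counted but not reported here by name.

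Members, lists and naming rules were chosen with earlier results of these data known: Rps26, the 5 brightest and dimmest members, up to 10 called each way for 24 against 3 months (the 5 largest changes where under 5 were called) and up to 5 for other steps, the 5 smallest p of the F test, paralogs, those most like Rps26, and up to 4 called genes per list. Alternatives were other normalizations, filters and probes, slide, session or replicate number as a block, the compared ages alone, and each sample left out. Replicate numbers did not pair samples: deviations of same-numbered samples had a median correlation of -0.0851, over 0.1 in 2 of 25 pairs.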

Additional observations from a re-analysis of the deposited data

Results flagged for a closer look

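In 10 of 82 members, 1 sample of 24 months lay far from the other 3, its gap to the nearest passing Dixon's critical value of 0.829. Chance alone flags about 1 in 20 such groups. The 82 members share the same arrays and tend to move together, so these flags are not independent results. In 9 of the 10 it was sample 4, each time the highest: Rpl14 (8.88, others 8.17 to 8.19), Rpl19 (7.56, others 7.20 to 7.23), Rpl26 (8.72, others 7.96 to 8.09), Rpl27a (8.20, others 7.69 to 7.72), Rpl31 (8.35, others 7.79 to 7.86), Rpl32 (8.24, others 7.86 to 7.89), Rpl36 (7.50, others 7.04 to 7.10), Rpl37a (9.28, others 8.46 to 8.58) and Rps28 (9.14, others 8.52 to 8.60). These flags depend on the scaling. With quantile normalization sample 3 was the highest in 5 members and sample 4 the lowest in 1, with the series table in 10 and 1, and with normexp sample 3 was the lowest in 20. In Rps4x sample 3 was the highest (5.95, others 5.74 to 5.77).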

How the results depend on the processing

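Rps26 at 24 against 3 months passed under every alternative run (-1.91 with normexp, -3.43 to -3.22 under the other settings with all samples, -3.56 to -2.78 without 1 sample), and no other probe of it was measured. Its shift against the other members, -3.23, was -1.59 with normexp background correction and -3.59 to -2.78 without 1 sample. The members' median change, 0.03, was -0.21 with normexp, where all genes shifted by 0.12, and -0.06 to 0.06 without 1 sample. The causes of these differences were not tested.

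Members called at 24 against 3 months, 4 in the report, numbered 7 with quantile normalization, 1 with normexp, 9 with the series table, 2 with no filter, 1 with slide as a random block, 2 with the replicate block and 2 with the compared ages alone. Leaving out 1 sample gave 1 to 6, with 1 without any of the 3-month samples and 2 without 9-month sample 3, 18-month sample 1 or 3, or 24-month sample 1. Leaving out 12-month sample 2 and 24-month sample 4 together, chosen after seeing the data, gave 14.

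At 9 against 3 months, 2 became 0 with normexp, 1 with a filter on all 16 arrays, 4 with slide as a random block and 0 to 2 without 1 sample, with 0 without 3-month sample 2 and 1 without 3-month sample 1. At 12 against 9 months, 1 became 0 with quantile normalization, normexp, the series table, no filter, the replicate block and the compared ages alone. It became 3 with a filter on all arrays, 8 with slide as a random block, 6 with scan session, 8 with slide as a fixed block, 2 within slide 2, 4 without the 2 samples named, and 0 to 2 without 1 sample. At 18 against 12 months, 1 became 0 with slide as a random block, the replicate block and the compared ages alone, and 0 without 18-month sample 1, 3 or 4 (range 0 to 1).

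At 24 against 18 months, 23 became 3 with normexp, 36 with the series table, 14 with no filter, 3 with slide as a random block, 7 with scan session, 12 with the replicate block and 14 with the compared ages alone. Leaving out 1 sample gave 11 to 28, with 13, 14 and 11 without 18-month samples 1, 3 and 4. In the F test, 20 became 3 with normexp, 13 with no filter, 13 with slide as a random block, 13 with scan session, 11 with the replicate block, 45 without the 2 samples named and 13 to 30 without 1 sample, with 13 without 3-month sample 1, 9-month sample 1 or 18-month sample 4. In the trend, 0 became 1 with quantile normalization, 2 with scan session, 4 without the 2 samples named and 0 to 1 without 1 sample. Replicate numbers do not pair these samples, so the replicate block is a hint at most.

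With scan session as a block, Rpl10l at 24 against 18 months was 0.040 and Rpl36 was -0.018, opposite in sign to the report. Rps7 was -0.020 with the mean of its probes, whose signs differ.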
